A study of Drosophila melanogaster with 15 samples.

Results

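The comparison set larval brains trisomic for the left arm of chromosome 2 (T2L) against brains of the compound-chromosome control (C2L), in Drosophila melanogaster, and covered every measured gene on and off that arm. The libraries were chosen by their genotype labels, T2L or C2L, and made up 6 of the 15 libraries in the series. The study sequenced polyadenylated RNA from brains of female late third-instar larvae raised at 25 °C, in 5 genotypes of 3 libraries each, with 3 brains pooled per library and the replicates of a genotype taken on different days. The C2L libraries came from C(2L)SH1 larvae dissected 5 days after egg laying. The T2L libraries were read, by elimination among the listed genotypes, as C(2L)SH1/+ larvae, dissected 8 days after egg laying. Genotype and age therefore change together in this comparison and cannot be told apart. Oregon libraries, whose age the labels do not give, are set beside both groups where a control stock value helps. The other genotypes, CDXX (read as C(1)DX/X, 8 days) and CDXY (C(1)DX/Y, 5 days), form a second trisomy comparison, for chromosome X, with the same pair of ages.

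C(2L)SH1 is a compound chromosome in which the left arms of chromosome 2 are joined, so that an animal that also inherits a normal chromosome 2 carries an additional left arm. In aneuploid fly cells, messenger RNA from genes on the large autosomes usually follows gene copy number, partly buffered. The machinery that equalizes X expression between the sexes has no known counterpart on those large autosomes. Products of a trisomic arm that belong to complexes built from many chromosomes are then made in excess of their partners, which is widely linked to protein quality control, metabolic and stress responses.

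The 6 libraries held 23521025 to 27142240 counts each, against 22949943 to 28272926 over all 15. Each gene was tested with edgeR's quasi-likelihood test, with p-values adjusted by Benjamini-Hochberg over 8981 genes and a call at an adjusted p under 0.05. Libraries were scaled on genes off arms X and 2L, so changes are relative to chromosomes present in the same number in both groups. Levels are given as CPM, counts divided by the scaled library size and brought to a common total, and fold changes are on the log2 scale with their standard errors (SE). The 16 genes named for ribosomal RNA took 3.50% to 5.57% of the counts in T2L libraries and 4.00%, 7.99% and 6.06% in C2L replicates 4, 5 and 6. The part of that RNA in the results was not tested.

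Arm 2L gave a larger share of all counts in every trisomic library. The share was 21.3%, 20.6% and 20.6% in T2L replicates 4, 5 and 6, and 15.6%, 14.7% and 15.1% in the C2L libraries. The T2L mean was 20.8% ± 0.396 (SD, n = 3) and the C2L mean 15.1% ± 0.489 (SD, n = 3). The groups did not overlap (two-sided exact permutation test, p = 0.1, the smallest that 3 libraries against 3 allow). In the Oregon libraries the share was 15.3%, 15.2% and 15.1%, which C2L overlapped (two-sided exact permutation test, p = 0.7).

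**Figure D1:**
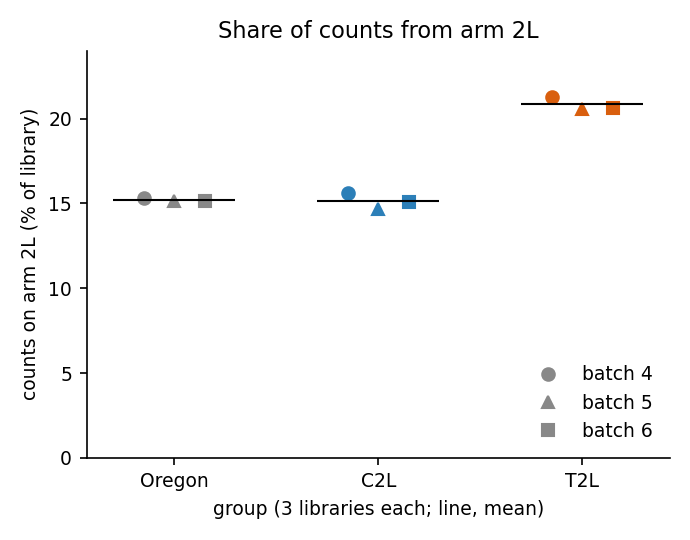
Share of all counts from genes on arm 2L (% of the library, vertical axis) in the Oregon, C2L and T2L libraries. Each point is 1 library, its shape marks the batch and the line is the mean of 3. The T2L points lie at 20.6% to 21.3% and the others at 14.7% to 15.6%.

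The rise was spread over most genes of the arm. Of 1562 tested genes on 2L, 938 rose (60.1%) and 1 fell (0.064%). Positive log2 fold changes were found for 96.4% of them. The median log2 fold change on 2L was 0.54, with quartiles of 0.40 and 0.72. The median off 2L was −0.01. The difference of these medians was 0.55, or 1.46-fold, beside 0.58 for a ratio of 1.5. Computed within batches 4, 5 and 6 from paired libraries, the difference was 0.52, 0.55 and 0.54, with a mean of 0.54 ± 0.02 (SD, n = 3). In the comparison with the Oregon libraries the median of 2L genes was 0.55 for T2L and 0.01 for C2L.

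The other chromosomes were centred near 0. For all of them but X this is largely set by the scaling, which used genes off X and 2L. The median log2 fold change was 0.00 on 2R, −0.01 on 3L, −0.02 on 3R and −0.02 on X. Calls off 2L came to 291 of 7368 genes higher (3.95%) and 157 lower (2.13%). On the small chromosome 4, 9 of 87 genes rose (10.3%), 1 fell, and the median was 0.08. None of the 18 tested mitochondrial genes was called, at a median of 0.11, and none of 9 genes on Y. Over all 8981 genes the calls were 1394 (15.5%), of which 1232 were higher (13.7%) and 162 lower (1.8%). With scaling factors from all genes the fold changes off 2L shifted down to a median of −0.08, and the higher calls made up 74.1% of all calls instead of 88.4%. Off 2L that scaling gave 232 higher and 360 lower calls, so which direction held more calls there depended on the scaling. Without C2L replicate 6 the number of calls was 850.

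**Figure D2:**
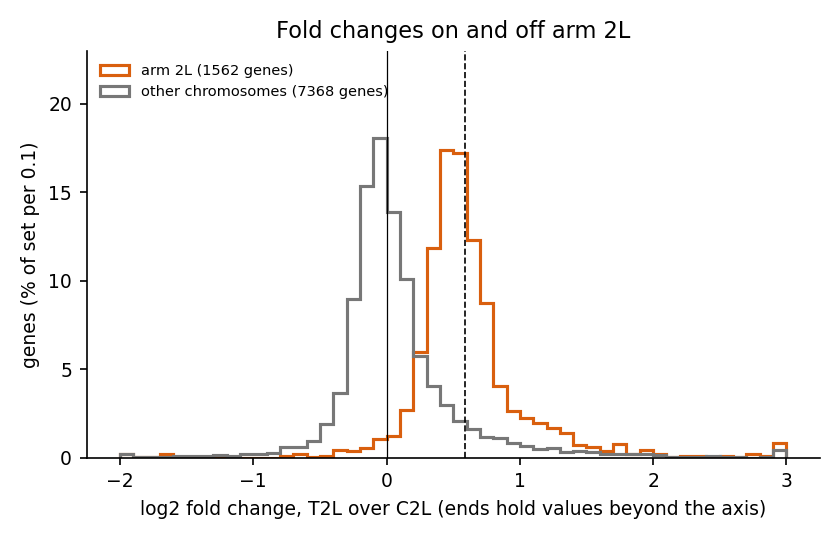
Distribution of log2 fold changes, T2L over C2L (horizontal axis), for 1562 genes on arm 2L and 7368 genes on other chromosomes, as the percentage of each set per step of 0.1. The solid line marks 0 and the dashed line a ratio of 1.5. The 2L genes centre on 0.54 and the other genes on −0.01.

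The response was narrow for most 2L genes, with tails on both sides. The log2 fold change lay between 0.4 and 0.8 for 870 genes (55.7%) and between 0.2 and 0.4 for 278 genes (17.8%). It was under 0 for 56 genes (3.59%) and at least 1 for 193 genes (12.4%). Genes with low expression spread more widely. Among the 521 with the lowest mean CPM the quartiles were 0.38 and 1.00 and 39.0% rose, while among the 521 with the highest the quartiles were 0.40 and 0.68 and 71.2% rose. Protein-coding genes had a median of 0.53 over 1518 genes, and the 44 of other types one of 0.73.

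Along the arm, the rise was present from the tip to the centromere. In windows of 2 Mb the median log2 fold change lay between 0.47 and 0.56 in every window from the tip up to 22 Mb. It was 0.72 in the last, from 22 to 24 Mb, where 23 of 27 genes rose. On 2R the first window from the centromere, 0 to 2 Mb, had a median of 0.37 over 16 genes, of which 3 rose. The next, 2 to 4 Mb, had a median of 0.13 over 10 genes, of which 2 rose, and C2L minus Oregon there had a median of 0.40. From 4 Mb on, the medians on 2R lay between −0.04 and 0.05. Both windows of raised values hold few genes. 1 of the rising genes in the centromeric stretch of 2R, CG46302, had nearly the same counts as CG40439 on 2L (log2 fold change 0.75 for both), so reads could not be divided between them.

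**Figure D3:**
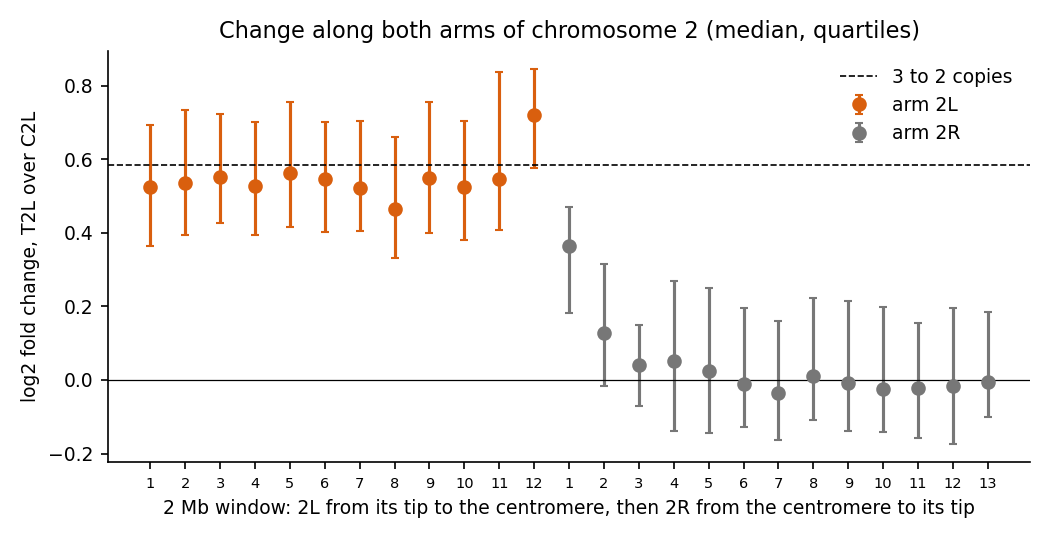
Median log2 fold change, T2L over C2L (vertical axis), in windows of 2 Mb along arms 2L and 2R (horizontal axis, in order through the centromere). Points are medians and bars the quartiles of the genes in a window. The 2L medians lie between 0.47 and 0.72 and those on 2R fall from 0.37 beside the centromere to near 0.

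Single 2L genes were also tested against a rise of 1.5-fold instead of no change. Of 1562 genes, 18 lay above it (1.15%) and 11 below (0.704%). A gene without such a call need not follow the copy ratio. The departures were also sensitive to single libraries, with 2 to 15 above and 0 to 13 below when 1 library was left out.

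Genes above the copy ratio included secreted growth factors of the chitinase-like family. Idgf3, an imaginal disc growth factor (2L:16450907-16455194), stood at 104, 94.4 and 105 CPM in C2L and at 361, 270 and 237 CPM in T2L. The groups were far apart, with Oregon at 93.8 ± 3.66 CPM (SD, n = 3). Idgf3 rose by 1.52 (SE 0.16, adjusted p = 0.000186) and exceeded the copy ratio by 0.93 (adjusted p = 0.0153). Its neighbour Idgf2 read 35.0, 32.1 and 30.8 CPM in C2L and 156, 96.0 and 109 CPM in T2L, a rise of 1.88 (SE 0.25, adjusted p = 0.000461) that lay above the copy ratio (adjusted p = 0.0228). Cda5, a chitin deacetylase, read 10.7, 16.6 and 12.9 CPM in C2L and 48.5, 38.9 and 43.0 CPM in T2L and rose by 1.70 (SE 0.20). CG2201 rose by 1.67 (SE 0.19) and the neighbouring lncRNA:CR43148 by 1.78 (SE 0.21). Marf1, which lies near the centromere, went from 0.435, 0.607 and 0.470 CPM to 5.51, 9.01 and 11.5 CPM, a rise of 4.09 (SE 0.39), with Oregon at 1.23 CPM. CG4594 averaged 0.374 CPM in C2L and 5.47 CPM in T2L, a rise of 3.85 (SE 0.39), with Oregon at 5.06 CPM. For CG4594, C2L minus Oregon was −3.73 (adjusted p = 0.00013), while T2L minus Oregon was not called (0.11, adjusted p = 0.90). Its position above the copy ratio thus goes with a low level in C2L. Marf1, Idgf2 and CG4594 were taken from the list of departures after their values were seen. The departure calls of CG2201, Cda5, Idgf3 and lncRNA:CR43148 were kept under 10, 10, 8 and 9 of 14 alternatives. In the X trisomy, CDXX over CDXY, Idgf3, Idgf2, Marf1, CG4594 and CG2201 also rose, by 1.63, 2.22, 3.34, 1.72 and 0.91. Cda5 fell there by 0.83, and lncRNA:CR43148 was not called (0.30).

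Genes below the copy ratio included regulators of development and replication. None of the 11 was also called higher than C2L. ham, a zinc finger factor that sets neuronal fate choices (2L:18762874-18792906), stood at 99.1, 88.8 and 101 CPM in C2L and at 89.4, 95.3 and 80.7 CPM in T2L. The groups overlapped, and the log2 fold change was −0.12 (SE 0.12, adjusted p = 0.561). It lay below the copy ratio by −0.71 (adjusted p = 0.0153). gcm, the switch factor for glial fate, had a log2 fold change of −0.28 (SE 0.19). Dref, which drives replication genes, had one of 0.18 (SE 0.08). The non-coding CR45458 read −0.37 (SE 0.17) and CG8892 0.17 (SE 0.08). Myo28B1, IntS14, CG5181, Ube4A and Ntf-2r were also among them. In T2L against Oregon, CG8892, Dref and Myo28B1 were called higher, by 0.52, 0.35 and 2.92 (adjusted p = 0.0012, 0.0138 and 0.0065). ham, gcm and CR45458 were not called in that comparison (0.03, −0.17 and 0.27). For CG8892 the mean was 47.5 CPM in Oregon, 60.3 CPM in C2L and 68.0 CPM in T2L. The departure calls of ham, CR45458, Myo28B1 and CG8892 were kept under 10, 9, 7 and 8 of 14 alternatives. gcm and Dref were named after their values were seen.

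Myo28B1, a myosin heavy chain gene, was the only 2L gene called lower. It stood at 11.7, 17.6 and 11.6 CPM in C2L and at 0.589, 1.98 and 5.72 CPM in T2L. The groups did not overlap, and Oregon lay below both at 0.360 ± 0.0146 CPM (SD, n = 3). The log2 fold change was −2.31 (SE 0.57, adjusted p = 0.0147). The call was lost without T2L replicate 5 (adjusted p = 0.0649) and in the fit of the 6 libraries with a batch block (adjusted p = 0.0566).

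The largest rises on 2L among genes of at least 5 CPM had estimates past the copy ratio, but not all were called above it. Cyp28d1, a cytochrome P450, read 15.2, 9.29 and 8.11 CPM in C2L and 123, 60.7 and 33.0 CPM in T2L, and rose by 2.73 (SE 0.41, adjusted p = 0.00083). CG17549 read 11.0, 6.83 and 11.8 CPM in C2L and 89.9, 53.1 and 63.6 CPM in T2L, and rose by 2.80 (SE 0.40, adjusted p = 0.000635). Both kept their call without any single library. yellow-b rose by 3.15 (SE 0.80), CG10211 by 2.24 (SE 0.69) and MFS3, a transporter of the major facilitator family, by 2.04 (SE 0.59). These calls were lost without any 1 of 4 libraries each, with an adjusted p up to 0.0836, 0.13 and 0.137. With a batch block in the 6 libraries the adjusted p was 0.0548 for yellow-b and 0.0653 for CG10211, and with the block over all libraries it was 0.0516 for CG10211. In the test against 1.5-fold, Cyp28d1 and CG17549 were called above that ratio (adjusted p = 0.0225 and 0.0153). In the same test yellow-b, CG10211 and MFS3 were not called (adjusted p = 0.104, 0.203 and 0.197).

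In complexes whose subunits are encoded across the genome, calls fell mostly on the subunits encoded on 2L. All lists were taken from textbook knowledge and are described by counts only, beside 60.1% of genes called higher on 2L and 3.95% off it. Oxidative phosphorylation, the respiratory chain and ATP synthase of mitochondria, had 66 nuclear genes measured. All 13 on 2L rose, at a median of 0.56, and none of the 53 off 2L was called, at a median of −0.01. ND-15, a complex I subunit, read 56.9, 52.7 and 54.1 CPM in C2L and 95, 99.6 and 88.1 CPM in T2L, a rise of 0.79 (SE 0.09, adjusted p = 0.000275). ND-13A rose by 0.58 (SE 0.08) and ND-B22 by 0.51 (SE 0.08). The 13 genes of the chain encoded in mitochondria were not called, at a median of 0.12.

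Ribosomal protein genes on 2L also rose. Of 82 genes for the cytosolic ribosome, 15 of 17 on 2L rose, at a median of 0.68. RpS13 read 1457, 1180 and 1239 CPM in C2L and 2162, 2095 and 1935 CPM in T2L, a rise of 0.68 (SE 0.09, adjusted p = 0.000544). RpL9 rose by 0.72 (SE 0.10). The 65 genes off 2L had a median of 0.09, or 0.02 with scaling on all genes, with 54 and 40 of 65 above 0 respectively, beside 48.2% and 38.5% of all genes off 2L. Among these 65, 1 rose and 1 fell, both of them second copies of a ribosomal protein gene. RpS5b went from 16.6, 14.5 and 15.0 CPM to 54.6, 34.8 and 37.0 CPM, a rise of 1.45 (SE 0.20, adjusted p = 0.000504). RpS19b, at 1.97 to 2.51 CPM in C2L, fell by 1.85 (SE 0.52, adjusted p = 0.0298), a call lost without any 1 of 5 libraries (adjusted p = 0.0528 to 0.113). In mitochondrial ribosomes, 11 of 12 genes on 2L rose, at a median of 0.54, and none of 59 off 2L was called, at a median of −0.08. mRpS7 rose by 0.69 (SE 0.10) and mRpL28 by 0.56 (SE 0.08).

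The proteasome, which degrades ubiquitin-tagged proteins, had a smaller rise on 2L and lower values elsewhere. Its 4 genes on 2L had a median of 0.31, and only Prosalpha6 was called. Prosalpha6 read 210, 201 and 220 CPM in C2L and 243, 312 and 318 CPM in T2L, a rise of 0.47 (SE 0.12, adjusted p = 0.0211), lost without any 1 of 5 libraries (adjusted p = 0.0654 to 0.09) and with a batch block in the 6 libraries (adjusted p = 0.0664). All 28 genes off 2L had log2 fold changes below 0, from −0.40 to −0.04 with a median of −0.28, and 1 of them passed the test.

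That gene was Rpn2, a scaffold subunit of the regulatory particle, at 390, 455 and 391 CPM in C2L and 289, 312 and 332 CPM in T2L. The groups did not overlap, and Rpn2 fell by 0.40 (SE 0.11, adjusted p = 0.0238), with the call lost without C2L replicate 5, T2L replicate 4 or T2L replicate 5 (adjusted p = 0.0662 to 0.0875) and with a batch block in the 6 libraries (adjusted p = 0.064). The summed level of the 28 genes was 6370, 6930 and 6779 CPM in C2L and 4704, 5895 and 6087 CPM in T2L, lowest in replicate 4 of each group. With scaling on all genes 3 of the 28 were called lower, at a median of −0.34. In 23 of the 32 proteasome genes the groups did not overlap, beside 34.8% of all genes tested.

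Members off 2L were also mostly under 0 in the cytosolic chaperonin and the aminoacyl-tRNA synthetases. In the chaperonin ring, which folds actin and tubulin, CCT4 on 2L rose by 0.44 (SE 0.11, adjusted p = 0.0202) and none of the 7 off 2L was called, with all 7 under 0 at a median of −0.15. The CCT4 call was lost without any 1 of 5 libraries (adjusted p = 0.0679 to 0.0895) and with a batch block in the 6 libraries (adjusted p = 0.0697). Of the synthetases, which charge tRNAs with amino acids, 5 of 6 on 2L rose, at a median of 0.40. AlaRS went from 203, 203 and 208 CPM to 253, 275 and 289 CPM, a rise of 0.41 (SE 0.08, adjusted p = 0.00506). Off 2L, 3 of 27 were above 0 and the median was −0.16, with 2 called lower, or 8 with scaling on all genes. GlnRS fell by 0.25 (SE 0.07, adjusted p = 0.0212) and beta-PheRS fell by 0.27 (SE 0.08, adjusted p = 0.0369). Both calls were lost without any 1 of 4 libraries (adjusted p = 0.0501 to 0.0715 and 0.0569 to 0.121) and with a batch block in the 6 libraries (adjusted p = 0.129 and 0.103).

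**Figure D4:**
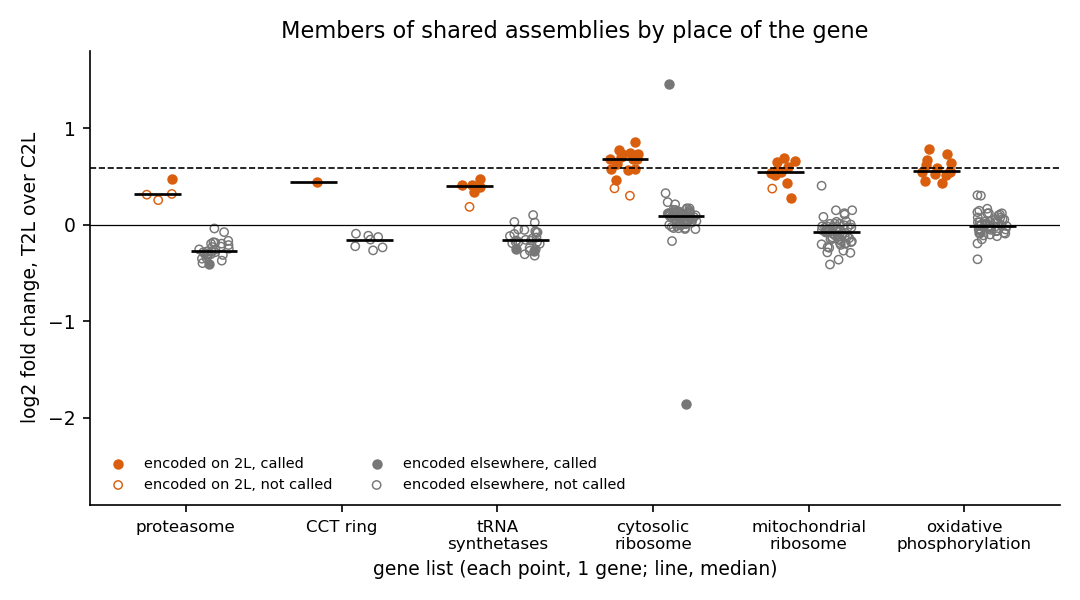
Log2 fold change, T2L over C2L (vertical axis), of each gene in 6 lists (horizontal axis), with members on arm 2L beside members elsewhere. Filled points were called, lines are medians, and the dashed line is a ratio of 1.5. The 2L members have medians from 0.31 (proteasome) to 0.68 (cytosolic ribosome), and those elsewhere from −0.28 to 0.09.

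In the stress and quality-control lists most calls were on members encoded on 2L. For folding in the endoplasmic reticulum, the 3 genes on 2L rose and none of the 17 off 2L was called. CaBP1, a protein disulphide isomerase relative, read 270, 279 and 293 CPM in C2L and 413, 457 and 474 CPM in T2L, and rose by 0.67 (SE 0.09). Herp and Der-1, both of the degradation machinery of that compartment, rose by 0.61 (SE 0.10) and 0.50 (SE 0.10). For autophagy and lysosomes, 2 of 3 on 2L rose and none of 20 off 2L was called.

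Lamp1, a lysosomal membrane protein (2L:21573389-21577103), read 214, 235 and 235 CPM in C2L and 469, 495 and 512 CPM in T2L, a 2.16-fold rise (log2 1.11, SE 0.13, adjusted p = 0.000273), with Oregon at 238 ± 48.8 CPM (SD, n = 3). ref(2)P, the fly p62 adaptor that collects ubiquitin-tagged cargo, read 111, 120 and 111 CPM in C2L and 181, 177 and 212 CPM in T2L, a rise of 0.74 (SE 0.13, adjusted p = 0.00188).

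In the integrated stress response, which slows translation under amino acid and folding stress, crc on 2L, the fly ATF4, rose by 0.72 (SE 0.14, adjusted p = 0.00341). aay, a serine synthesis phosphatase on 3L, read 21.4, 11.8 and 9.48 CPM in C2L and 48.2, 48.2 and 26.1 CPM in T2L, and rose by 1.52 (SE 0.32, adjusted p = 0.00594). It was the only one of 14 members off 2L to be called. Of 20 heat shock genes, none on 2L, only stv was called, a cochaperone that rose by 1.13 (SE 0.28, adjusted p = 0.0146), lost without any 1 of 3 libraries (adjusted p = 0.0644 to 0.0798) and with only the 6 libraries (adjusted p = 0.0752). Trx2, a thioredoxin on 2L, rose by 0.72 (SE 0.12) as the single call among 25 antioxidant genes. Xrp1, a stress factor that responds to ribosomal protein imbalance in flies, read 297, 194 and 219 CPM in C2L and 329, 273 and 251 CPM in T2L, a log2 fold change of 0.26 (SE 0.18, adjusted p = 0.38). Xrp1 was chosen after its values were seen.

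In DNA repair and cell death, 4 of 6 genes on 2L rose, among them Ku80 of end joining by 0.63 (SE 0.11). The checkpoint kinase lok rose by 0.71 (SE 0.18) and okr of recombination by 0.49 (SE 0.13), calls lost without any 1 of 2 and 3 libraries (adjusted p up to 0.0586 and 0.104). Of 21 off 2L, Blm, a repair helicase, fell by 0.35 (SE 0.09, adjusted p = 0.017), lost without any 1 of 3 libraries (adjusted p = 0.0534 to 0.0613) and with a batch block in the 6 libraries (adjusted p = 0.0741). Of 15 genes of JNK and JAK/STAT signalling, 2 rose, both on 2L, namely bsk, the Jun kinase, by 0.62 (SE 0.11) and Socs36E, a feedback inhibitor, by 0.53 (SE 0.07). In mitochondrial quality control the 3 genes on 2L rose, Drp1 by 0.53 (SE 0.07), Tim23 by 0.63 (SE 0.09) and milt by 0.55 (SE 0.10). ClpX, a mitochondrial protease subunit on 3R, fell by 0.57 (SE 0.17, adjusted p = 0.0425), lost without any 1 of 5 libraries (adjusted p = 0.0599 to 0.144) and with a batch block over all libraries (adjusted p = 0.0582).

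No gene of glycolysis was called, although every one of 13 had a log2 fold change above 0, at a median of 0.73. Ldh, lactate dehydrogenase, read 67.8, 21.3 and 27.5 CPM in C2L and 125, 102 and 113 CPM in T2L, a log2 fold change of 1.54 (SE 0.73, adjusted p = 0.188). The summed level was 4205, 2331 and 2516 CPM in C2L replicates 4, 5 and 6 and 6111, 4589 and 3630 CPM in T2L. The groups overlapped, and within each batch the T2L library was the higher.

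Several signalling genes that sit on 2L rose. In insulin signalling chico, the receptor substrate, rose by 0.60 (SE 0.08), while none of the 16 members off 2L was called. In the immune list, all 3 genes on 2L rose and none of 8 off 2L was called. cact, the inhibitor of NF-kappaB factors, rose by 0.54 (SE 0.09). dl, one of those factors, read 14.2, 7.09 and 8.70 CPM in C2L and 34.7, 21.7 and 21.5 CPM in T2L, and rose by 1.38 (SE 0.30, adjusted p = 0.00726). Dif, another, rose by 0.72 (SE 0.21, adjusted p = 0.0333), a call lost without each of the 6 libraries (adjusted p = 0.0527 to 0.137). The dosage compensation and sex list had 4 of 4 genes on 2L higher. They were msl-2 by 0.67 (SE 0.10), Clamp by 0.50 (SE 0.08), her by 0.51 (SE 0.07) and msl-1. Of its 13 genes off 2L, JIL-1, a chromatin kinase, fell by 0.32 (SE 0.10, adjusted p = 0.0449), lost without any 1 of 4 libraries (adjusted p = 0.0544 to 0.147) and with a batch block in the 6 libraries (adjusted p = 0.134). None of 24 ecdysone pathway genes was called, at a median of −0.03. The 20 off 2L had a median of −0.13, with 9 above 0. The summed level of the list was 4007 to 5215 CPM in C2L and 3338 to 3853 CPM in T2L.

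Genes that mark brain cells were mostly uncalled off 2L. These are bulk libraries, in which fewer cells of a type and less RNA per cell cannot be told apart. The pan-neuronal elav read 269 to 485 CPM in C2L and 296 to 346 CPM in T2L, and the glial factor repo 99.7 to 162 CPM and 112 to 185 CPM, so brain markers were present in every library and the groups overlapped. Of 33 neuron genes, 5 of 6 on 2L rose and none of 27 off 2L was called, at a median of 0.07. Syt1, the vesicle calcium sensor, rose by 0.69 (SE 0.17), nAChRalpha6, a nicotinic receptor subunit, by 0.84 (SE 0.19) and nrv3, a sodium pump subunit, by 0.64 (SE 0.17). These calls were lost without any 1 of 3, 2 and 4 libraries (adjusted p up to 0.0778, 0.0569 and 0.125).

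Of 27 neuroblast genes, numb, which segregates cell fates at division, and l(2)gl, a polarity gene, rose by 0.72 (SE 0.11) and 0.65 (SE 0.16), both on 2L. The l(2)gl call was lost without C2L replicate 5 or T2L replicate 5 (adjusted p up to 0.0576) and with a batch block in the 6 libraries (adjusted p = 0.058). The 21 off 2L had a median of −0.20 with none called. Among 46 cell cycle genes, 3 of 8 on 2L rose, including twe, a Cdc25 phosphatase, by 0.71 (SE 0.16). pim, the fly securin, rose by 0.65 (SE 0.17), lost without any 1 of 3 libraries (adjusted p up to 0.0886) and with a batch block in the 6 libraries (adjusted p = 0.0982). Off 2L the median was −0.17. There, CycJ rose by 1.05 (SE 0.29, adjusted p = 0.0283) and Orc1, of the replication origin complex, fell by 0.61 (SE 0.17, adjusted p = 0.0276). Both calls were lost without any 1 of 5 and 4 libraries (adjusted p up to 0.0942 and 0.106), and Orc1 also with a batch block in the 6 libraries (adjusted p = 0.102).

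Of 15 temporal factors of neuroblasts, chinmo rose and Syp fell. chinmo, the early factor, on 2L, read 580, 812 and 582 CPM in C2L and 1248, 1088 and 951 CPM in T2L, and rose by 0.74 (SE 0.21, adjusted p = 0.0287). Syp, the later RNA-binding protein, on 3R, read 1562, 1864 and 1856 CPM in C2L and 1206, 1497 and 1200 CPM in T2L, and fell by 0.44 (SE 0.13, adjusted p = 0.0358). Neither gene's groups overlapped, and both calls were lost without any 1 of 4 libraries (adjusted p = 0.0694 to 0.134 for chinmo and 0.103 to 0.122 for Syp). With only the 6 libraries the adjusted p of Syp was 0.069. The rise of chinmo was not called as departing from the copy ratio (test against 1.5-fold, adjusted p = 0.713). In CDXX over CDXY chinmo rose by 0.77 and Syp was not called (−0.07). The other 13 genes of that list were not called.

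Of 18 glial genes off 2L, 2 rose, and 16 had log2 fold changes above 0 at a median of 0.34. wrapper, a surface protein of midline and cortex glia, read 90.4, 82.6 and 82.8 CPM in C2L and 113, 122 and 112 CPM in T2L. The groups did not overlap, Oregon was at 111 ± 7.85 CPM (SD, n = 3), and wrapper rose by 0.44 (SE 0.08, adjusted p = 0.00276). alrm, of astrocyte-like glia, read 159, 142 and 74.4 CPM in C2L and 432, 240 and 199 CPM in T2L, and rose by 1.22 (SE 0.34, adjusted p = 0.0294), a call lost without any 1 of 3 libraries (adjusted p = 0.0618 to 0.155) and with only the 6 libraries (adjusted p = 0.0853). On 2L, nrv2, a glial sodium pump subunit, rose by 1.21 (SE 0.24, adjusted p = 0.00396). The summed level of all 22 glial genes was 1730 to 2467 CPM in C2L and 2360 to 3825 CPM in T2L.

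Surface proteins of neuronal wiring, the dpr, DIP, beat and side families, had 9 of 15 genes on 2L higher, at a median of 0.76. beat-Ib read 19.7, 17.5 and 17.4 CPM in C2L and 36.6, 36.6 and 33.0 CPM in T2L, and rose by 0.96 (SE 0.14, adjusted p = 0.00059), and beat-IIIc rose by 0.83 (SE 0.13). Of 38 off 2L, 31 were above 0, at a median of 0.18, and dpr21 and dpr5 were called. dpr21, on 2R near the centromere, read 29.1, 38.5 and 34.4 CPM in C2L and 53.2, 59.0 and 62.4 CPM in T2L, with Oregon at 27.8 ± 1.85 CPM (SD, n = 3), and rose by 0.78 (SE 0.13, adjusted p = 0.00169). Fas3, an adhesion protein on 2L, was the 1 call among 19 optic lobe genes, a rise of 0.91 (SE 0.25) that was lost without each of the 6 libraries (adjusted p = 0.0578 to 0.0998).

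Cytochrome P450 genes, which oxidize hormones, toxins and lipids, rose off 2L as well as on it. Of 36 measured, 10 rose and none fell, 8 of them among the 29 off 2L, where 25 had a log2 fold change above 0 and the median was 0.84. Cyp6a17, on 2R, had no count in any C2L library and stood at 33.5, 19.4 and 15.5 CPM in T2L, at least 604-fold higher than a floor of 3 counts over the C2L group (adjusted p = 0.000353). Oregon had 12.7 ± 5.68 CPM (SD, n = 3) of it. Cyp6a13 read 1.27, 1.37 and 0.823 CPM in C2L and 7.41, 7.79 and 3.48 CPM in T2L, with Oregon at 2.58 CPM, and rose by 2.43 (SE 0.30, adjusted p = 0.000303). Cyp12b2, Cyp28c1, Cyp28d2, Cyp6a20, Cyp6a23, Cyp6a9 and Cyp6t3 were the other rises besides Cyp28d1, by 1.34 to 3.38. Some Cyp6a genes are close relatives, and the division of reads among them is uncertain.

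Outside these lists, the largest rises off 2L, among called genes averaging at least 5 CPM whose groups did not overlap, included genes nearly silent in C2L. CG6912 (3R:15135138-15137004) read 2.28, 1.78 and 2.47 CPM in C2L and 53.1, 53.9 and 44.1 CPM in T2L. The groups were far apart, and CG6912 rose by 4.53 (SE 0.18, adjusted p = 3.1e-08). Bbd (Bombardier), a secreted protein of the Toll immune response, went from 0.326, 0.341 and 0.588 CPM to 18, 10.7 and 11.6 CPM, a rise of 4.99 (SE 0.50, adjusted p = 0.000147). Irc, a catalase of immune-exposed epithelia, went from 5.40, 4.82 and 5.49 CPM to 77.5, 31.5 and 15.2 CPM, a rise of 2.98 (SE 0.52, adjusted p = 0.00201).

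Tsf1, the iron carrier transferrin on X, read 133, 58.7 and 54.2 CPM in C2L and 799, 398 and 321 CPM in T2L. Every T2L library was above every C2L library, and Tsf1 rose by 2.63 (SE 0.45, adjusted p = 0.00176), with Oregon at 71.7 ± 25.1 CPM (SD, n = 3). Cpr51A, a cuticle protein gene, rose by 2.97 (SE 0.47) and CG9360 by 2.65 (SE 0.25). All of these rises were kept without any single library. Replicate 4 was the highest T2L library for Tsf1, Irc, Bbd and Cpr51A. In CDXX over CDXY, where X is the trisomic chromosome, Tsf1 rose by 4.72 (adjusted p = 5.8e-05). The T2L change minus the CDXX change was −2.09 for Tsf1 (interaction test, adjusted p = 0.0255).

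The falls off 2L were smaller and less stable. CG4872 on X read 7.58, 8.38 and 9.21 CPM in C2L and 2.53, 3.38 and 2.88 CPM in T2L, and fell by 1.52 (SE 0.22, adjusted p = 0.000736). CG6592 read 14.3, 10.7 and 9.13 CPM in C2L and 4.08, 3.91 and 3.31 CPM in T2L, and fell by 1.59 (SE 0.36, adjusted p = 0.00873). Both kept their call without any single library.

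Lsp1gamma, a larval serum protein made by the fat body, had the lowest fold change among the named falls, with 3.37, 3.79 and 24.3 CPM in C2L and 1.26, 1.33 and 2.15 CPM in T2L. The value of C2L replicate 6 stood apart. Lsp1gamma fell by 2.73 (SE 0.73, adjusted p = 0.0241) and was not called without C2L replicate 6 (adjusted p = 0.165), nor without T2L replicate 4 or 5. Lsd-1, a lipid droplet perilipin, fell by 1.00 (SE 0.28), Cul6, a cullin, by 0.83 (SE 0.24), CG10738 by 0.83 (SE 0.24) and CG12910 by 0.74 (SE 0.22). Those 4 calls were lost without any 1 of 4 to 6 libraries (adjusted p up to 0.119, 0.116, 0.114 and 0.132), and with a batch block in the 6 libraries for Lsd-1 (adjusted p = 0.0656) and CG10738 (adjusted p = 0.0567). At 2-fold or more there were 148 rises and 14 falls off 2L. The number of rises off 2L was 185 without C2L replicate 5, 146 without C2L replicate 6 and 162 without T2L replicate 4. The number of falls was 66 without C2L replicate 6, 86 without T2L replicate 4 and 86 without T2L replicate 5.

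**Figure D5:**
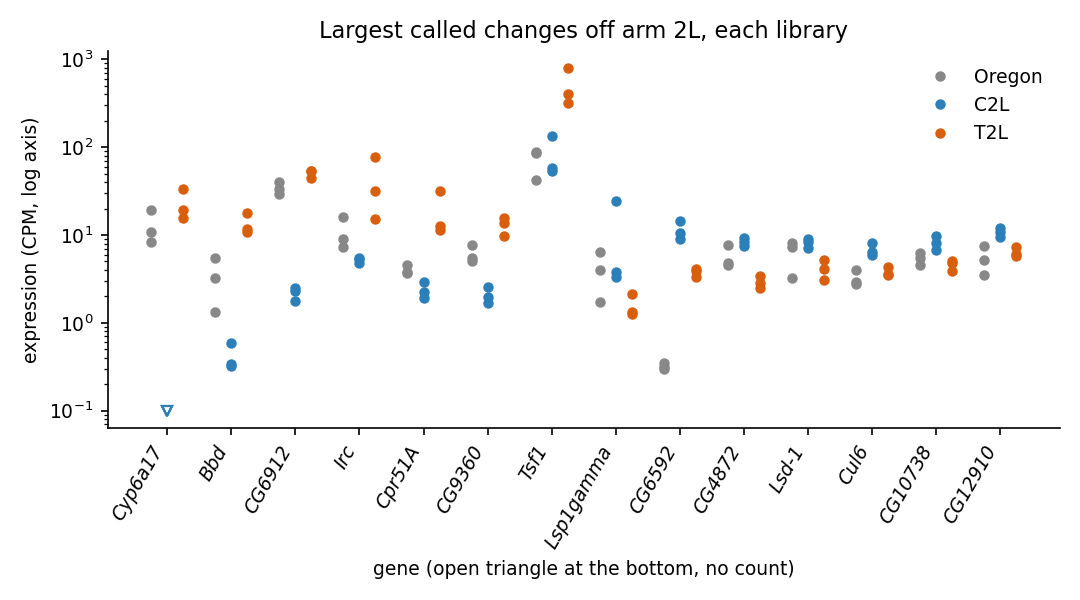
Expression (CPM, log axis) of the 7 largest rises and 7 largest falls off arm 2L among called genes of at least 5 CPM, in each Oregon, C2L and T2L library. Each point is 1 library, and the open triangle marks C2L libraries with no count. For CG6912 the Oregon and T2L points lie above C2L, with T2L the highest, and for CG6592 the Oregon points lie below both.

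For some of these genes the Oregon level was nearer to T2L than to C2L, and for others it was below both. CG6912 was lower in C2L than in Oregon by 3.97 on the log2 scale (log2 fold change −3.97, adjusted p = 7.1e-08) and higher in T2L than in Oregon by 0.56 (adjusted p = 0.0224), and Cyp6a17 was at 0 in C2L alone. The eye pigment transporter gene w, on X, chosen after its values were seen, read 7.76, 4.93 and 7.45 CPM in C2L, 36.1, 38.3 and 37.5 CPM in T2L and 39.0 ± 9.36 CPM (SD, n = 3) in Oregon. Its change in T2L over C2L was 2.47 (SE 0.55, adjusted p = 0.0087). CG6592 and Myo28B1 were higher in C2L than in Oregon by 5.11 (adjusted p = 2.2e-05) and 5.23 (adjusted p = 0.00063), and higher in T2L than in Oregon by 3.52 and 2.92. Tsf1 differed from Oregon in T2L (2.82, adjusted p = 0.0011) and was not called in C2L (0.19, adjusted p = 0.94). These comparisons share libraries with T2L against C2L. Of the 291 genes that rose off 2L, the Oregon mean lay between the other group means for 212, below both for 31 and above both for 48. Of the 157 that fell it lay between for 117, below both for 23 and above both for 17. These genes were selected for a gap between T2L and C2L, which by itself favours an Oregon mean between them. No share over all genes off 2L stands beside these counts, so nothing is concluded from them. The part of stock background in the results was not tested.

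Few markers of tissues that touch the brain were called, and none was at 0 in all 6 libraries. FASN1, crq and Pcp among them lie on 2L, where 60.1% of all genes were called higher. Of 15 muscle genes, Mlc2 and TpnC73F rose, Mlc2 from 4.24, 5.84 and 3.06 CPM to 36.4, 14.3 and 22.7 CPM (log2 2.48, SE 0.54, adjusted p = 0.00756). TpnC73F rose by 1.93 (SE 0.44), a call lost without C2L replicate 6 (adjusted p = 0.052). The muscle list had a median of 1.36, with sums of 693 to 812 CPM in C2L and 829 to 913 CPM in T2L. Of 9 fat body genes, FASN1 rose by 0.83 (SE 0.25), lost without any 1 of 5 libraries (adjusted p up to 0.177), and Lsp1gamma and Lsd-1 fell, with a median of −1.50 over the 6 off 2L, and the list had sums of 1009 to 1137 CPM and 1444 to 1583 CPM. Of 14 hemocyte genes crq rose by 0.77 (SE 0.21), lost without any 1 of 5 libraries (adjusted p up to 0.115), the 8 off 2L had a median of −0.04, and the list had sums of 392 to 597 CPM and 527 to 972 CPM. Of 8 salivary and glue genes sage rose by 0.97 (SE 0.20), while the list had a median of −1.15 and 5 of its 7 members off 2L were under 0 with none called lower, with sums of 75.4 to 138 CPM and 72.3 to 91.8 CPM. Of 17 cuticle genes Cpr51A and Pcp rose, Pcp by 1.78 (SE 0.50) with the call lost without any 1 of 4 libraries (adjusted p up to 0.123), with only the 6 libraries (adjusted p = 0.0702) and with a batch block in them (adjusted p = 0.148). The cuticle list had a median of −0.47, 9 of its 16 members off 2L were under 0, down to −3.90, with none called lower, and the sums were 75.9 to 137 CPM and 54.2 to 87.7 CPM. None of 12 eye disc genes was called (sums 249 to 288 CPM and 294 to 364 CPM), nor any of 13 ring gland and tracheal genes (sums 363 to 1080 CPM and 426 to 1933 CPM). The part of attached tissue in the results was not tested.

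The X trisomy gives a comparison with the same ages and no shared library, over 5804 genes off both X and 2L. There, 236 genes rose and 127 fell in T2L over C2L, and 1169 rose (20.1%) and 1026 fell (17.7%) in CDXX over CDXY. Of the 236 T2L rises, 121 also rose in CDXX, which is 51.3% of the T2L list and 10.4% of the CDXX list, and 8 fell there. Of the 127 T2L falls, 57 also fell in CDXX, which is 44.9% of the T2L list and 5.56% of the CDXX list, and 8 rose there. Irc rose in both, by 2.98 in T2L and 4.24 in CDXX, and so did stv (1.13 and 1.65), aay (1.52 and 1.51) and Mlc2 (2.48 and 4.02). On 2L, 214 of the 938 T2L rises also rose in CDXX, beside 20.1% of the 5804 genes off X and 2L. The share over all 2L genes is not given, so the count is not read as a shared response. Those 214 included CG17549, Cyp28d1, CG10211 and MFS3, by 2.00, 2.30, 2.21 and 2.99 in CDXX, while yellow-b was not called there (0.57).

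The difference between both changes was tested as an interaction and called for 585 of the 5804 genes (10.1%), 288 with the T2L change higher and 297 with it lower. It was called for 69 of the 236 T2L rises and 26 of the 127 T2L falls. CG6912 differed by 4.54, with a CDXX change of −0.01, and wrapper by 0.71, with a CDXX change of −0.26. RpS5b differed by 1.10, with 1.45 in T2L and 0.36 in CDXX. alrm differed by 1.68 (1.22 and −0.47) and CycJ by 1.59 (1.05 and −0.54). With C2L replicate 4 left out the number of such genes was 273, and without C2L replicate 6 or T2L replicate 6 it was 367 or 308. With a batch block over all libraries it was 886.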

How the data were processed

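The authors deposited raw counts, whole numbers without normalization, for 8990 genes in 15 poly(A) libraries made with 13 amplification cycles, per the labels' protocols. The submitters' processing notes name Trim Galore, STAR 2.7.10a, featureCounts and the build dm6. The strand setting and the handling of multiply matching reads are not given in the sources used here. Close copies, overlapping genes and antisense partners are therefore uncertain, and 51 of the 98 named genes overlap an annotated neighbour. Symbols and positions came from the Ensembl annotation of the same assembly for 8939 genes. The other 51 were tested and not named. The smallest mean count of a gene was 27.

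Counts were tested with edgeR 4.0.16 in R 4.3.3 (robust quasi-likelihood F test, two-sided, Benjamini-Hochberg adjusted p under 0.05) with 1 mean per group over all 15 libraries, TMM factors from genes off X and 2L, and filterByExpr, which left 8981 genes. Biological variation had a coefficient of 24.9%. The departure test used an offset of log(1.5) for 2L genes in T2L. Within-batch values used a pseudocount of 0.5 CPM. The scripts were tested on simulated counts. Within groups, pairs of libraries differed by 55.4 to 172 times the sampling variance, and each was kept as its own replicate. The design text places replicates on different days, and p-values rest on the variation among those pools. T2L and C2L libraries share batch numbers in the labels, which was taken as pairing them. The labels do not say what a batch shares. Deviations of T2L and C2L libraries of the same batch correlated at 0.31, −0.03 and 0.27 across genes.

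Named genes were, from called genes averaging 5 CPM or more whose groups did not overlap, the 7 largest rises and falls off 2L, the 5 largest rises and any fall on 2L, then the 4 departures of lowest p each way and up to 3 members each way per list. 1 gene that the rule names is not reported here. The members and lists were chosen with earlier results of these data known. Some genes named in passing in the lists, the P450 genes beyond that rule, Ldh, elav, repo, CG46302, CG40439 and dpr5 were named after their values were seen. Alternatives were other scalings (all genes, DESeq2 size factors), DESeq2 1.42.0, other filters, only the 6 libraries, batch blocks and leaving out each library.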

Additional observations from a re-analysis of the deposited data

Results flagged for a closer look

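A change was singled out where the interaction test called a difference between the T2L and CDXX comparisons, which share ages and no library. Off X and 2L, 585 genes met this. Among the named genes, the T2L change exceeded the CDXX change, on the log2 scale, by 4.54 for CG6912, by 2.49 for Bbd, by 1.88 for Cpr51A and by 1.68 for alrm. It was higher by 1.59 for CycJ, 1.11 for sage, 1.10 for RpS5b, 0.90 for dpr21 and 0.71 for wrapper. For Cyp6a17 the fitted difference was 8.43, a value that depends on the prior count because C2L had no count. Bbd and Cyp6a17 also rose in CDXX, by 2.50 (adjusted p = 0.00082) and 3.75 (adjusted p = 0.001). Bbd was also low in C2L against Oregon (log2 fold change −2.99, adjusted p = 0.0033). The difference was negative for CG10738 (−2.06), Cul6 (−1.52) and GlnRS (−0.41). CG10738 and Cul6 fell in T2L and rose in CDXX, by 1.23 (adjusted p = 0.0018) and 0.69 (adjusted p = 0.034). Groups of 3 libraries were not examined for single outlying samples.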

How the results depend on the processing

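The rise of 2L kept its size in every alternative run, with a difference of medians of 0.53 to 0.56 when 1 library was left out and 0.56 over genes that overlap no other gene, a setting added after seeing the data. No named gene reversed, 60 of 98 kept their call throughout, 37 lost it without some single library and 24 under another alternative. With only the 6 libraries 14 named calls ended (adjusted p = 0.0517 to 0.0988), with scaling on all genes 3, namely CG10211, Dif and FASN1 (adjusted p = 0.0504 to 0.0596). Leaving out 1 library gave 850 to 1228 calls, 782 to 1039 higher and 68 to 189 lower. On 2L it gave 634 to 764 higher and 0 to 3 lower, and off 2L 146 to 272 higher and 66 to 184 lower. Departures were 2 to 15 above and 0 to 13 below, and differences between trisomies 273 to 822, with 145 to 428 higher and 128 to 394 lower. TMM on all genes gave 365 falls, 360 of them off 2L, and 64 departures below. The DESeq2 Wald test gave 319 falls, with 3 on 2L, 312 off 2L, 470 rises off 2L, 52 departures above, 72 below, and 936 differences between trisomies (472 and 464). Only the 6 libraries gave 80 falls, 78 off 2L, with 10 departures above and 2 below. The other filters and DESeq2 size factors moved no count by over 1.5 times.

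Because T2L and C2L libraries share batch labels, a replicate block was fitted. It ended 2 named calls over all libraries and 18 in the 6 libraries (adjusted p up to 0.148). Over all libraries it gave 1631 calls, 2 falls on 2L, 33 departures below and 886 differences between trisomies, 452 of them higher. In the 6 libraries it gave 1263 calls, 52 falls, none on 2L (0) and 52 off 2L, with 7 departures above and 0 below. The cause of these shifts was not tested. Depth limits genes of a few CPM, and intervals were not computed for them.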
